A study of Mus musculus with 15 samples.

Results

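The core loop of the circadian clock was followed through its 10 genes, Arntl, Clock, Npas2, Per1, Per2, Per3, Cry1, Cry2, Nr1d1 and Nr1d2. These genes were chosen by name, with earlier results of these data known, among the 16593 genes that the platform annotation gives for the array. The 10 genes are covered by 17 probes. Each was compared between mice homozygous for a mutation of Abcb5, a gene for an ATP-binding cassette transporter, and wild-type mice, once in liver and once in heart. The arrays were 3 mutant and 4 wild-type livers and 4 mutant and 4 wild-type hearts. All mice were male, 17 weeks old and of strain C57BL/6J-Tyr, and 7 of the 8 mice gave both tissues, while mutant mouse 4 gave the heart alone. Neither the nature of the Abcb5 mutation nor the time of day at which tissues were taken is stated in the sources at hand.

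The clock of mammalian cells is a transcriptional feedback loop. BMAL1, the product of Arntl, pairs with CLOCK or NPAS2 and activates genes through E-boxes in their promoters. Among these genes are the Per and Cry genes, whose proteins return to the nucleus and repress the activators, and Nr1d1 and Nr1d2, which encode REV-ERB-alpha and REV-ERB-beta, repressors of Arntl that act at ROR elements. The PAR bZIP factors DBP, TEF and HLF and the repressor NFIL3 form a further arm that acts through D-boxes. In liver and heart the transcripts of most of these genes rise and fall daily, with Arntl high when Per and Nr1d transcripts are low, and a single sample of tissue records the state at its own time of day.

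The letters of these elements were searched in the promoters of the members. RefSeq promoter windows of build GRCm38.p6, from 250 bases before to 50 bases after a transcription start, were at hand for 9 of the 10 genes (13 windows), Per2 being the exception. The E-box was searched as CACGTG, the D-box as TTATGTAA or TTACGTAA and the ROR element as ANTNGGTCA, each on both strands. An E-box was found in 2 of the 13 member windows, against 7.15% of all 32851 windows, a D-box in 1 (1.06% of all windows) and a ROR element in 1 (2.24%). The stretches below show those matches in capitals, 5′ to 3′ on the strand of the gene, because each has the letters of one of these elements. A match is a description of the letters and no measure of binding.
Arntl, ROR element after the start, chr7:113207529-113207558, plus strand: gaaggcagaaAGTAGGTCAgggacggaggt
Per1, E-box before the start, chr11:69098771-69098800, plus strand: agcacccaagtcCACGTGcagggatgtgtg
Cry1, E-box before the start, chr10:85185097-85185126, minus strand: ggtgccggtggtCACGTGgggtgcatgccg
Per3, both D-boxes before the start, chr4:151044808-151044878, minus strand: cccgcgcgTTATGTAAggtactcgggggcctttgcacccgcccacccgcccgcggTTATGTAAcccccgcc
The Per3 window held the same D-box 2 times, 39 bases apart.

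Values are given as log2(intensity + 16) after background correction, and a difference of 1 on this scale is a doubling for a bright probe and more than that for a dim one. The authors had scaled the tissues separately, with array medians near 113.1 in liver and between 8.04 and 8.08 in heart. For this reason a clock gene's level in liver was not set against its level in heart. The marker sums below add several probes and are given for both tissues only as a rough description. Testing was limited to probes above background on at least 3 arrays of the tissue, which held for 11823 probes in liver and 18514 in heart. Precision is limited by how many arrays each group had. Hepatocyte markers summed to between 40500 and 45500 in mutant livers and between 41200 and 46900 in wild-type livers, and in the hearts to at most 36.3. Of these 6 genes 5 passed the filter in liver. Fgb did not, and Alb was dim there, at a mean of 5.05 in mutant and 5.07 in wild-type livers. Cardiomyocyte markers summed to between 77300 and 96200 in mutant hearts and between 88600 and 164000 in wild-type hearts, and in the livers to at most 24.5, with 0 of their 5 measured genes above the filter. No probe carried the name Abcb5, so the genotype was not checked by its transcript.

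In the mutant livers the Per transcripts, Cry2 and Nr1d2 stood higher and Arntl lower than in wild type, but none of the members passed the threshold over all probes. Of the 17 member probes 13, of 9 genes, passed the filter in liver, and 0 had a limma adjusted p below 0.05, against 0.101% of all probes. An unadjusted p below 0.05 was found for 10 of the 13, 7 higher and 3 lower, against 11.4% of all probes, and the genotypes did not overlap on 8, against 11.2%. The median log2 change of the 13 was 0.52 and their median absolute change 0.64, against -0.0033 and 0.13 over all probes. Npas2 entered these counts through its wild-type livers alone and so had to differ. These are bulk tissues, in which fewer cells of a type and less RNA per cell cannot be told apart.

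**Figure D1:**
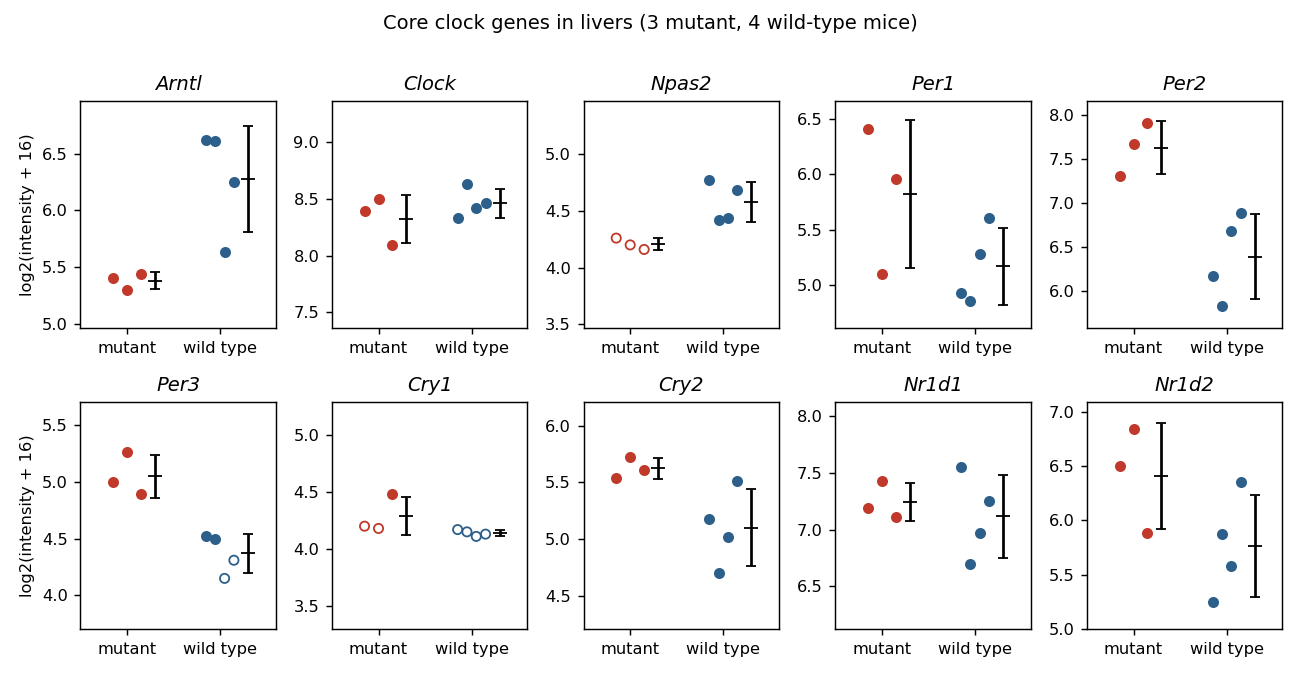
Log2(intensity + 16) of the brightest probe of each of the 10 genes in livers, with mutant mice (n = 3, red) left of wild-type mice (n = 4, blue). Filled points are above background and open points are not, and bars are mean ± SD. Every axis spans at least 2 log2 units. The Per2 points of the mutants lie between 7.31 and 7.90, all above the wild-type points (5.83 to 6.89), and the Arntl points of the mutants between 5.30 and 5.44, all below the wild-type points (5.63 to 6.62).

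Arntl, which encodes the activator BMAL1, was at 5.40, 5.30 and 5.44 in mutant livers 1 to 3, against 6.62, 6.61, 5.63 and 6.25 in wild-type livers 1 to 4. The 3 mutant livers lay close together below every wild-type liver, while wild-type liver 3 stood near them. The change was -0.90 ± 0.21 (SE, 1.86-fold lower, limma adjusted p = 0.178), and without wild-type liver 3 it was -1.11 with an adjusted p of 0.0385. Without any other 1 liver the adjusted p lay between 0.179 and 0.359.

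Clock, whose protein is the partner of BMAL1, had a bright, a dim and an undetected probe. On the bright probe (ILMN_2610973) the mutant livers were at 8.39, 8.50 and 8.09 and the wild-type livers at 8.33, 8.63, 8.42 and 8.46. The groups overlapped, and the change was -0.13 ± 0.14 with a 95% interval from -0.43 to 0.17 (adjusted p = 0.778). The dim probe (ILMN_2600964) was at 4.51, 4.40 and 4.46 in mutant livers, against 4.99, 5.09, 4.91 and 4.56 in wild-type livers, a change of -0.43 ± 0.14 (adjusted p = 0.303). The probe ILMN_2589603 was above background on 0 of the 15 arrays. Npas2, which encodes an alternative partner of BMAL1, was above background in 0 of 3 mutant livers and in 4 of 4 wild-type livers. Its values were 4.26, 4.20 and 4.16 in mutant livers, against 4.77, 4.42, 4.44 and 4.68 in wild-type livers, which is at least 1.15-fold lower in the mutants (adjusted p = 0.320). Here at least means that the mutant side is a bound set by the lowest signal that counts as above background.

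Per2, which encodes a repressor of the activator pair, showed the largest difference of the members in liver. On its brightest probe (ILMN_2987862) the mutant livers were at 7.31, 7.67 and 7.90, against 6.17, 5.83, 6.68 and 6.89 in wild-type livers. No mutant liver reached down into the wild-type range, and the change was 1.24 ± 0.24 (2.35-fold, adjusted p = 0.0973). Probe ILMN_2987863 gave 6.67, 6.85 and 7.32 in mutant livers, against 5.61, 5.58, 5.94 and 6.35 in wild-type livers, again without overlap, a change of 1.08 ± 0.21 (2.11-fold, adjusted p = 0.0973). These probes ranked 32 and 33 by p among the 11823 tested. Without wild-type liver 4, whose values were the highest of its group, both probes passed (1.40 with adjusted p = 0.0405 and 1.24 with adjusted p = 0.0289). Without any other 1 liver neither probe passed (adjusted p between 0.0556 and 0.274). A further probe, ILMN_1258523, was above background in 2 of 3 mutant livers and 0 of 4 wild-type livers and was not tested.

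Per3, a Per paralog, was at 5.0, 5.26 and 4.89 in mutant livers and at 4.52, 4.50, 4.15 and 4.31 in wild-type livers. It was above background in all 3 mutant livers and in 2 of 4 wild-type livers, and the groups did not overlap. The change was 0.68 ± 0.14 (1.6-fold, adjusted p = 0.133).

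Per1, the family member also induced quickly by hormones and light, was read by 2 probes. On probe ILMN_2813484 the mutant livers were at 6.41, 5.10 and 5.96, against 4.93, 4.86, 5.28 and 5.61 in wild-type livers. Mutant liver 2 lay inside the wild-type range there, and the change was 0.66 ± 0.28 (adjusted p = 0.393). On probe ILMN_2813487 the mutant livers were at 5.74, 5.53 and 5.22 and the wild-type livers at 4.48, 4.44, 5.17 and 4.91, without overlap, a change of 0.74 ± 0.20 (adjusted p = 0.198). Cry2, which encodes a repressor that acts with the PER proteins, was at 5.54, 5.72 and 5.61 in mutant livers, against 5.18, 4.70, 5.02 and 5.51 in wild-type livers. Its groups touched closely without overlapping, and the change was 0.52 ± 0.17 (adjusted p = 0.301). Cry1, its paralog, had 1 probe, which was above background in 1 of 3 mutant and 0 of 4 wild-type livers and in 0 of 8 hearts, and was tested in neither tissue.

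In liver the genotypes overlapped on both REV-ERB genes, of which Nr1d1 changed little and Nr1d2 stood higher without passing the threshold. Nr1d1 was at 7.19, 7.43 and 7.11 in mutant livers and at 7.55, 6.70, 6.97 and 7.25 in wild-type livers on probe ILMN_1229091. All 3 mutants lay within the wild-type range, and the change was 0.13 ± 0.19 with a 95% interval from -0.29 to 0.54 (adjusted p = 0.851). On probe ILMN_2749669 the change was 0.06 ± 0.15 with an interval from -0.28 to 0.40. Nr1d2 (ILMN_2798993) was at 6.50, 6.84 and 5.88 in mutant livers, against 5.25, 5.87, 5.58 and 6.35 in wild-type livers. The groups overlapped, with a change of 0.64 ± 0.26 (adjusted p = 0.386), and its other probe was above background in 0 of 3 mutant and 1 of 4 wild-type livers.

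In the mutant hearts Nr1d1 and Clock rose, and Per2, Per3 and Cry2 stood lower without passing the threshold. Of the 17 probes 15, of 9 genes, passed the filter in heart, and 3 had an adjusted p below 0.05, all higher, against 1.98% of all probes. An unadjusted p below 0.05 was found for 7, 3 higher and 4 lower, against 15.7% of all probes. The genotypes did not overlap on 5, 3 higher and 2 lower, against 10%. The median log2 change of the 15 was -0.03 and their median absolute change 0.32, against 0.00514 and 0.12 over all probes.

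**Figure D2:**
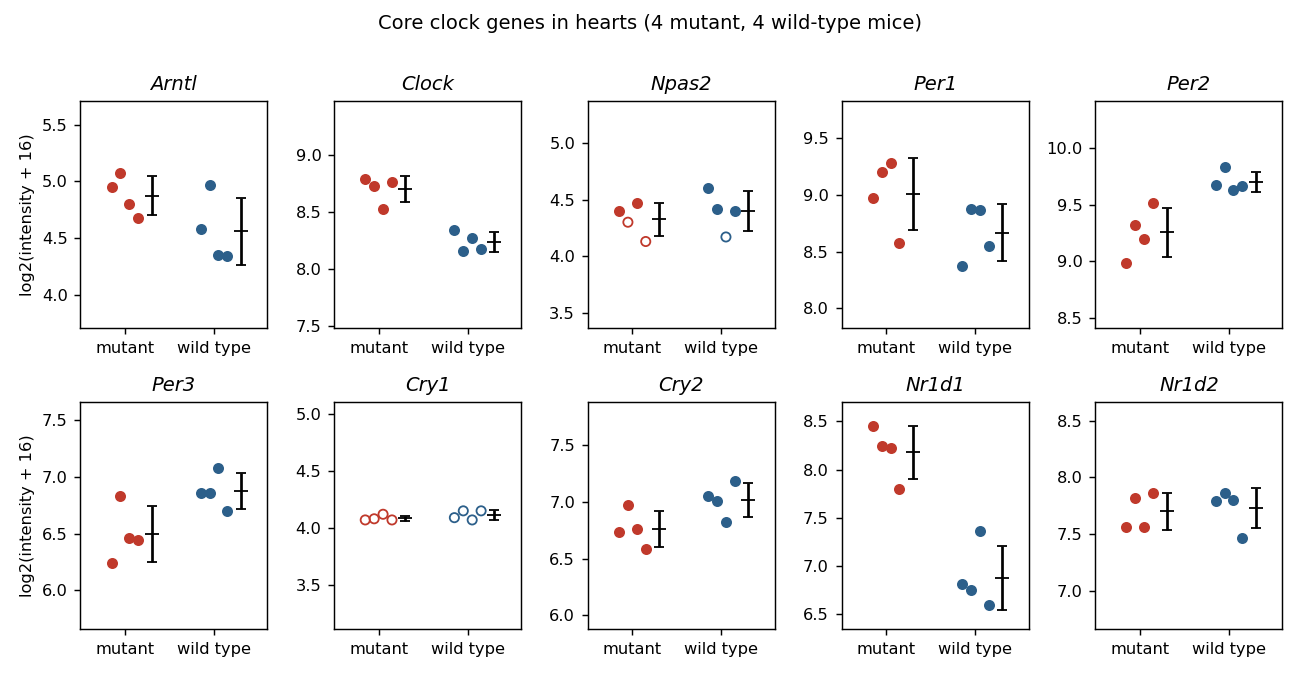
Log2(intensity + 16) of the brightest probe of each gene in hearts, with mutant mice (n = 4, red) left of wild-type mice (n = 4, blue). Filled points are above background and open points are not, and bars are mean ± SD. Every axis spans at least 2 log2 units. The Nr1d1 points of the mutants lie between 7.80 and 8.45, all above the wild-type points (6.60 to 7.36), while the Per2 points of the mutants lie between 8.99 and 9.51, all below the wild-type points (9.63 to 9.83).

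Nr1d1, which encodes the Arntl repressor REV-ERB-alpha, was at 8.45, 8.24, 8.22 and 7.80 in mutant hearts 1 to 4, against 6.81, 6.75, 7.36 and 6.60 in wild-type hearts 1 to 4. Every mutant heart was above every wild-type heart, mutant heart 4 being the lowest of its group and wild-type heart 3 the highest of its own. It rose by 1.30 ± 0.17 (2.45-fold, limma adjusted p = 0.00248). Its dimmer probe (ILMN_2749669) was at 7.08, 6.81, 6.70 and 6.18 in mutant hearts, against 5.63, 5.49, 5.62 and 5.06 in wild-type hearts, and rose by 1.24 ± 0.18 (2.37-fold, adjusted p = 0.00502). The mutant heart that was lowest on one probe was lowest on the other. Both probes lost their calls with a floor of 16 in place of normexp, either after the background was subtracted (1.43 with adjusted p = 0.0648 and 1.67 with adjusted p = 0.0863) or on the deposited values (1.45 with adjusted p = 0.067 and 1.74 with adjusted p = 0.0826). Nr1d2, the gene of REV-ERB-beta, was at 7.56, 7.82, 7.56 and 7.86 in mutant hearts and at 7.79, 7.86, 7.80 and 7.47 in wild-type hearts. Its groups overlapped almost fully, and the change was -0.03 ± 0.12 with a 95% interval from -0.28 to 0.23 (adjusted p = 0.945). The dim Nr1d2 probe (ILMN_2602387) stood at 0.14 ± 0.10 (adjusted p = 0.548).

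Clock was at 8.79, 8.73, 8.53 and 8.76 in mutant hearts, against 8.34, 8.16, 8.27 and 8.17 in wild-type hearts, on its bright probe. The groups were separate and tight, and the transcript rose by 0.47 ± 0.10 (1.38-fold, adjusted p = 0.0296). This call was lost, with adjusted p between 0.0519 and 0.0865, without any 1 heart other than mutant heart 3, and also with a floor of 16 on the deposited values (0.0525) and with the replicate block (0.0781). The change stayed between 0.43 and 0.52 under all 16 alternatives. The dim Clock probe (ILMN_2600964) was at 4.19, 4.50, 4.63 and 4.56 in mutant hearts and 4.56, 4.63, 4.48 and 4.41 in wild-type hearts (-0.05 ± 0.11, adjusted p = 0.877). Arntl was at 4.95, 5.07, 4.8 and 4.68 in mutant hearts and at 4.58, 4.97, 4.35 and 4.34 in wild-type hearts. These values were near background, wild-type heart 2 lay among the mutants, and the change was 0.31 ± 0.14 (adjusted p = 0.321). Npas2 was above background in 2 of 4 mutant and 3 of 4 wild-type hearts (-0.08 ± 0.11, adjusted p = 0.811).

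Per2 was at 8.99, 9.32, 9.20 and 9.51 in mutant hearts, against 9.67, 9.83, 9.63 and 9.66 in wild-type hearts, on its brightest probe. The wild-type hearts were close together and all mutant hearts were below them, by -0.44 ± 0.12 (1.36-fold lower, adjusted p = 0.0811). Probe ILMN_2987863 gave 8.32, 8.79, 8.54 and 8.92 in mutant hearts and 9.25, 9.21, 9.10 and 8.96 in wild-type hearts, also without overlap (-0.49 ± 0.13, adjusted p = 0.0903). The dim probe ILMN_1258523 stood at -0.16 ± 0.13 (adjusted p = 0.627). Without mutant heart 4, the highest mutant on both bright probes, ILMN_2987862 passed (-0.53, adjusted p = 0.0476). That probe passed under 3 of 16 alternatives, its adjusted p running from 0.02 to 0.233.

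Per3 was at 6.24, 6.83, 6.46 and 6.44 in mutant hearts and at 6.86, 6.86, 7.08 and 6.70 in wild-type hearts. Mutant heart 2 lay within the wild-type range, and the change was -0.38 ± 0.13 (adjusted p = 0.175). Cry2 was at 6.73, 6.97, 6.76 and 6.58 in mutant hearts and at 7.05, 7.01, 6.82 and 7.18 in wild-type hearts, with 1 mutant inside the wild-type range and a change of -0.26 ± 0.11 (adjusted p = 0.296). Per1 differed in sign from Per2 and Per3, at 8.97, 9.20, 9.28 and 8.58 in mutant hearts and 8.37, 8.88, 8.87 and 8.55 in wild-type hearts. Its groups overlapped and neither probe passed (0.34 ± 0.16 and 0.32 ± 0.15, adjusted p = 0.345 and 0.329).

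**Figure D3:**
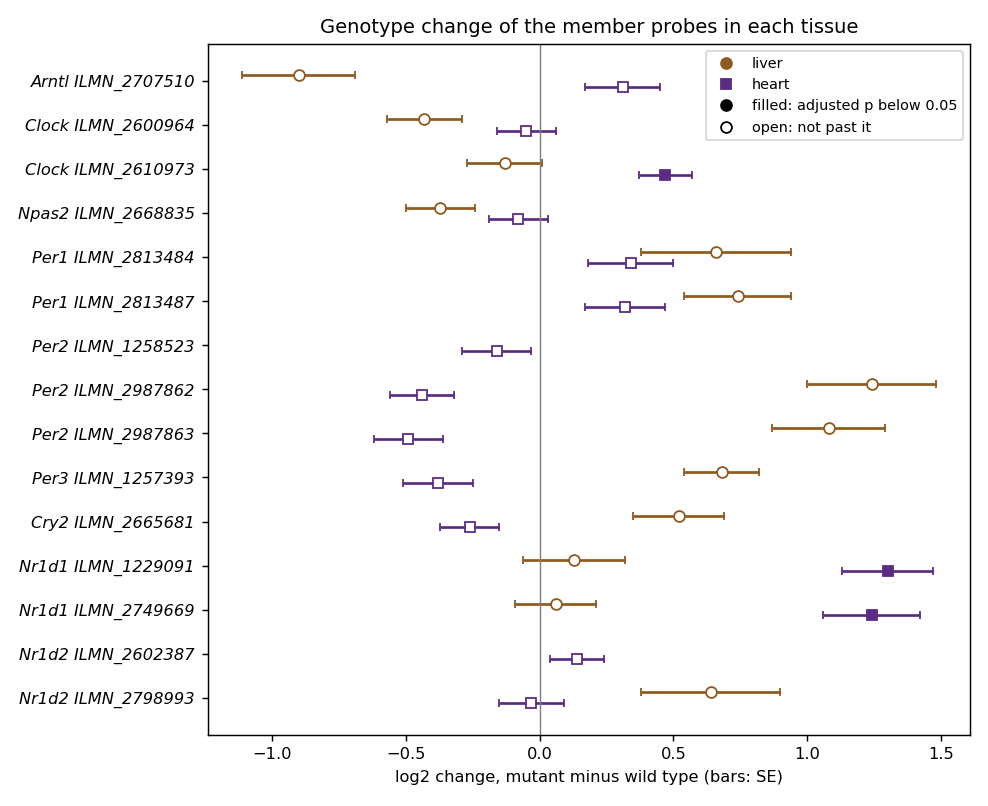
Log2 change, mutant minus wild type, with its SE for each member probe that was tested, in liver (brown circles, 3 mutant and 4 wild-type mice) and heart (violet squares, 4 mutant and 4 wild-type mice). Filled symbols have a limma adjusted p below 0.05. The 2 bright Per2 probes stand at 1.24 and 1.08 in liver and at -0.44 and -0.49 in heart, and the 2 Nr1d1 probes at 0.13 and 0.06 in liver and at 1.30 and 1.24 in heart.

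The genotype difference of Per2, Per3, Arntl and Nr1d1 was not the same in the tissues. The liver change minus the heart change was tested over all 15 arrays with limma, with the mouse as a random block (estimated correlation 0.0123), on 11307 probes measured in both tissues. Of the 13 member probes tested, 6, of 4 genes, had an adjusted p below 0.05, against 2.19% of all probes, and 10 an unadjusted p below 0.05, against 16.1%. The fit assumes 1 spread for both tissues, and the tissues had been scaled apart. For Per2 the difference was 1.68 ± 0.28 (adjusted p = 0.00628) on the brightest probe and 1.57 ± 0.26 (adjusted p = 0.00628) on the next, the changes having opposite signs in liver and heart. Per3 likewise had opposite signs, with a difference of 1.06 ± 0.19 (adjusted p = 0.0111), and so did Arntl in the other direction, with -1.21 ± 0.27 (adjusted p = 0.0287). Nr1d1 differed by -1.17 ± 0.27 (adjusted p = 0.0352) and -1.19 ± 0.26 (adjusted p = 0.0248) on its 2 probes, its change being large in heart and near 0 in liver.

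Cry2 (0.78 ± 0.21, adjusted p = 0.0585) and the bright Clock probe (-0.60 ± 0.16, adjusted p = 0.0545) missed the threshold of that test. Per1 stood at 0.32 ± 0.35 and 0.43 ± 0.26 (adjusted p = 0.698 and 0.446) and Nr1d2 at 0.67 ± 0.30 (adjusted p = 0.285). Taken as a liver minus heart difference within each of the 7 mice that gave both tissues, which needs no equal spread between tissues, 92 of all probes passed, against 248, and 5 of the members. The probe that lost its call there was ILMN_1229091 of Nr1d1 (-1.29, adjusted p = 0.0578). Arntl lost its call, with adjusted p between 0.0516 and 0.0629, on leaving out wild-type liver 1 or 2, mutant liver 2 or 3, wild-type heart 3 or 4, or mutant heart 1 or 2. Nr1d1 lost its call on ILMN_1229091, with adjusted p between 0.0543 and 0.0814, without wild-type liver 1 or 4, mutant liver 1 or 3, wild-type heart 1, 2 or 4, or mutant heart 1, 2 or 3, and on ILMN_2749669 without mutant liver 2 (adjusted p = 0.056). The Per2 probes and Per3 kept theirs without any 1 array. With the background subtracted and a floor of 16, Per2 kept its calls, while Per3 (0.62, adjusted p = 0.17), Arntl (adjusted p = 0.063) and both Nr1d1 probes (adjusted p = 0.0739 and 0.0627) lost theirs. With an offset of 50 these calls held, with a difference of 0.58 for Per3, -0.71 for Arntl and -0.79 for ILMN_2749669 of Nr1d1.

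**Figure D4:**
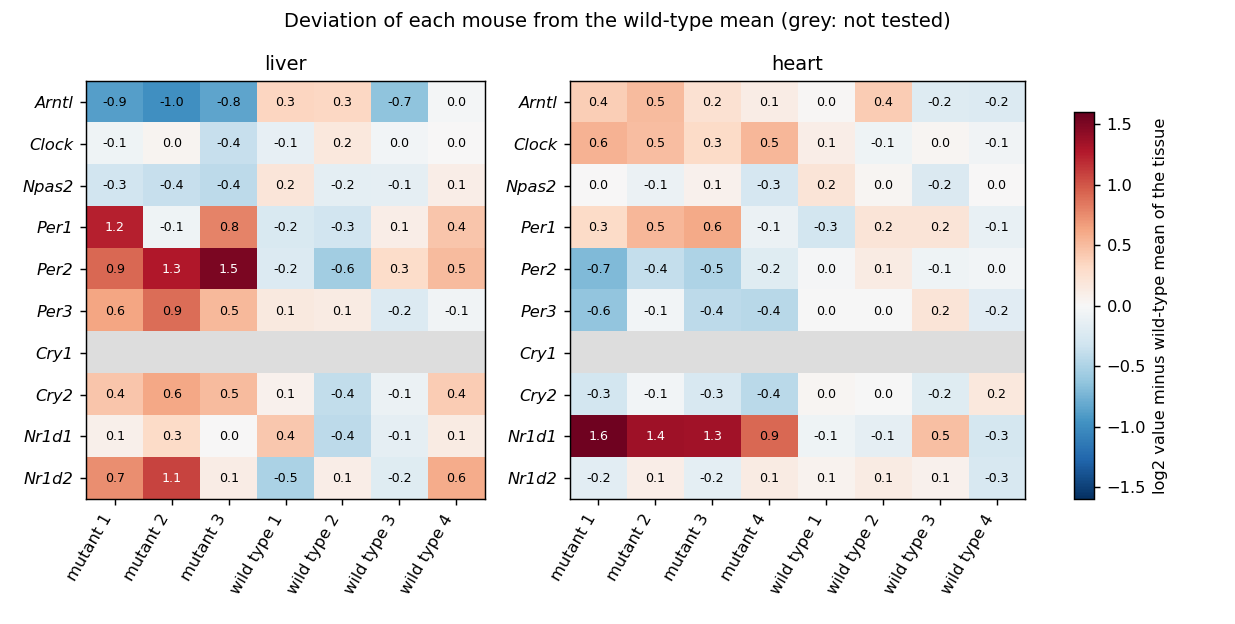
Deviation of the log2 value of each array from the wild-type mean of its tissue for the brightest probe of each gene, with mutant columns left of wild-type columns. The same number within a genotype is the same mouse in both panels, and grey marks Cry1, which was not tested. In the Per2 row the mutants run from 0.92 to 1.51 in liver and from -0.71 to -0.19 in heart, and in the Nr1d1 row from 0.00 to 0.31 in liver and from 0.92 to 1.56 in heart.

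The values of single mice are given as a description. For Per2 the genotypes overlapped in neither tissue, so each mutant mouse had to show opposite signs. In mutant mice 1, 2 and 3 Per2 deviated from the wild-type mean by 0.92, 1.28 and 1.51 in the liver and by -0.71, -0.38 and -0.49 in the heart. In the same mice Arntl deviated by -0.88, -0.98 and -0.84 in the liver and by 0.39, 0.51 and 0.24 in the heart. Nr1d1 did not have opposite signs and deviated by 0.08, 0.31 and 0.00 in the liver and by 1.56, 1.35 and 1.34 in the heart. The wild-type livers differed among themselves on the same genes: Arntl ran from -0.65 in wild-type mouse 3 to 0.34 in wild-type mouse 1, and Per2 from -0.56 in wild-type mouse 2 to 0.50 in wild-type mouse 4. Wild-type mice 2, 3 and 4 also had opposite Per2 signs, with smaller deviations in the heart (0.13, -0.07 and -0.04).

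The spread between mice of one group was wide for several members. In liver the within-group SD was 0.50 for Per1 (ILMN_2813484), wider than for 98.4% of all tested probes, 0.47 for Nr1d2 (98.1%), 0.42 for Per2 (96.7%) and 0.36 for Arntl (93.8%), against a median of 0.19 over all probes. Below that median in liver were Npas2 (0.14), the tested Clock probes (0.17 and 0.18) and Per3 (0.18). In heart Nr1d1 had 0.30 and 0.33 on its 2 probes (93.7% and 95.5%), while bright Clock, at 0.10, was wider than only 12.3% of probes, against a median of 0.16.

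Other genes of the clock were read beside the loop. Of 33 further clock genes, 29 had a probe, 20 were tested in liver and 25 in heart, each by its brightest probe. In liver 2 rose and 0 fell (adjusted p below 0.05), against 0.101% of all probes called, and in heart 3 rose and 1 fell, against 1.98%. With an unadjusted p below 0.05, 5 were higher and 3 lower in liver, against 11.4% of all probes, and 3 were higher and 8 lower in heart, against 15.7%. The median change was 0.01 in liver and -0.12 in heart.

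Ciart, which encodes a repressor of the BMAL1 complex, rose in both tissues. In mutant livers it was at 5.35, 5.36 and 5.40, against 4.18, 4.49, 4.46 and 4.48 in wild-type livers, and it rose by 0.97 ± 0.12 (ILMN_3029489, adjusted p = 0.0172). That call was lost without wild-type liver 1, mutant liver 2 or mutant liver 3 (adjusted p between 0.0702 and 0.0936), without a filter (0.0912) and with a floor of 16 on the deposited values (0.24, adjusted p = 0.104), and the change was 0.45 with an offset of 50. In mutant hearts it was at 8.10, 8.07, 8.29 and 8.0, against 7.10, 7.26, 7.53 and 7.05 in wild-type hearts, and it rose by 0.88 ± 0.12 (ILMN_3102736, adjusted p = 0.00275). The brightest probe thus differed between the tissues. In liver ILMN_3102736 stood at 0.91 (adjusted p = 0.0337), above background in 1 of 4 wild-type livers, a call lost under 9 of 15 alternatives. In heart ILMN_3029489 stood at 1.29 (adjusted p = 0.000923). Dbp, which encodes a D-box activator, was at 10.27, 10.55 and 10.52 in mutant livers, against 6.97, 7.12, 8.77 and 9.16 in wild-type livers (2.44 ± 0.46, adjusted p = 0.0944). The wild-type livers were scattered over more than 2 log2 units while the mutants lay together. Without wild-type liver 4 Dbp passed (2.82, adjusted p = 0.0178), but not without any other 1 liver (adjusted p between 0.0926 and 0.238). In heart Dbp rose by 0.67 ± 0.14 (adjusted p = 0.0313), a call lost under 10 of 16 alternatives. These were leaving out wild-type heart 1 or 2 or mutant heart 1, 2 or 4 (adjusted p between 0.0594 and 0.0853), both floors of 16 (0.134 and 0.139), no filter (0.0786), the replicate block (0.0829) and a single fit of all arrays (0.358). Nfil3, which encodes the D-box repressor, fell by 0.46 on the log2 scale in heart (SE 0.10, adjusted p = 0.0399), and stood at -0.87 ± 0.23 in liver (adjusted p = 0.198). The heart call of Nfil3 was lost under 11 of 16 alternatives, namely without any 1 heart other than wild-type heart 3 (adjusted p between 0.0646 and 0.103), with both floors (0.0788 and 0.0799), with the replicate block (0.0769) and in the single fit (0.176).

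Usp2, a clock-controlled ubiquitin protease, and Tef, a D-box activator, had opposite signs in the tissues on their brightest probes, as Per2 had. The dimmer Usp2 probes ILMN_2466316 and ILMN_2482390 were above background in 0 livers. In heart they stood at -0.03 and -0.30 (adjusted p = 0.949 and 0.234). The dimmer Tef probe (ILMN_2715400) was not tested in liver and stood at -0.03 in heart (adjusted p = 0.959). Usp2 rose by 2.39 ± 0.18 in liver (5.25-fold, adjusted p = 0.000279) and stood at -0.55 ± 0.17 in heart (adjusted p = 0.134). The liver call was lost with the background subtracted and a floor of 16 (2.65, adjusted p = 0.0545) and without a filter (adjusted p = 0.0912), and the liver change was 1.43 with an offset of 50 and 0.87 with a floor of 16 on the deposited values. The difference between the tissues was 2.94 ± 0.26 (adjusted p = 2.41e-05), which ranked 1 of the 11307 probes. Tef stood at 1.20 ± 0.21 in liver (adjusted p = 0.0711) and -0.28 ± 0.11 in heart (adjusted p = 0.259), a difference of 1.48 ± 0.24 (adjusted p = 0.00628). Gsk3b, a kinase of clock proteins, was the remaining gene of the list past the threshold of that test and is named after its values were seen (0.61 ± 0.15, adjusted p = 0.0447). It lost the call without any 1 array other than mutant liver 1 or mutant heart 2 or 3 (adjusted p between 0.0596 and 0.0881) and with differences within mice (0.103), and stood at -0.48 ± 0.12 in heart (adjusted p = 0.0572). Bhlhe40, which encodes the E-box repressor DEC1, rose by 0.58 ± 0.13 in heart (adjusted p = 0.0434) and stood at 0.20 in liver. Its heart call was lost under 11 of 16 alternatives, namely without any 1 heart other than wild-type heart 1 or mutant heart 3 (adjusted p between 0.0836 and 0.117), with both floors (0.144 and 0.149), without a filter (0.088), with the replicate block (0.0563) and in the single fit (0.0588).

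**Figure D5:**
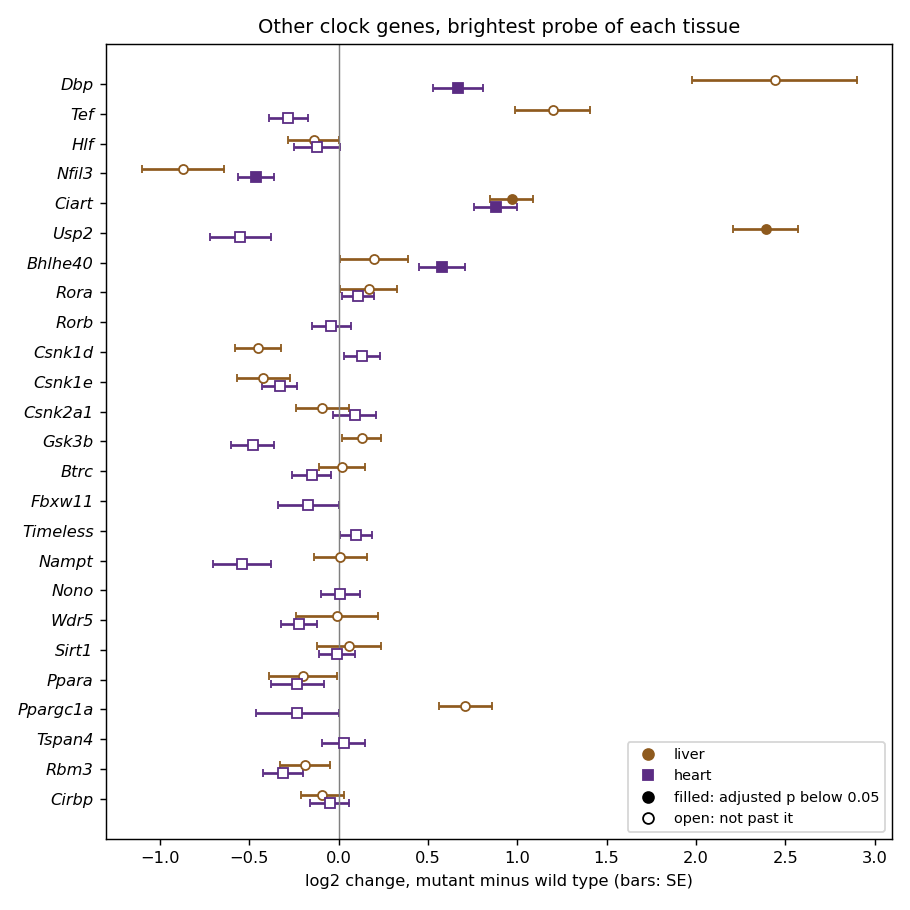
Log2 change, mutant minus wild type, with its SE for the other clock genes tested, each by its brightest probe in liver (brown circles) and in heart (violet squares). Filled symbols have a limma adjusted p below 0.05. Ciart stands at 0.97 in liver and 0.88 in heart, on different probes, while Usp2 stands at 2.39 in liver and -0.55 in heart.

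The transcripts most like 2 of the members over the 15 arrays were taken by Pearson's r of log2 values centred within each tissue, over 11307 probes. Such an r includes the genotype difference that the arrays share, and it is given as a description. To Per2 the highest were Tef (0.909) and Usp2 (0.898), then Plin4, a coat protein of lipid droplets (0.869), Pik3r1, a regulatory subunit of phosphoinositide 3-kinase (0.851), and Lpin2, a phosphatidate phosphatase (0.848). The log2 change of Pik3r1 was 0.60 in liver and -0.52 in heart, and that of Plin4 was 0.68 in liver and -0.26 in heart. To Arntl the highest were Slc8a1, a sodium-calcium exchanger (0.919), Dnmt3b, a DNA methyltransferase (0.918), Moxd1 (0.877), Fbxo8 (0.875) and Tdg, a DNA glycosylase (0.872). The lowest to Arntl were Slc35e3 (-0.903), Rhbdd3 (-0.878), Angel2 (-0.867), Ctnnbl1 (-0.856) and Igf2r (-0.853).

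Markers of other cells also differed between mutant and wild-type hearts, where the clock values above were read. Of all probes 1.98% were called in heart and 0.101% in liver. Of 5 red-cell markers 4 were measured and 3 fell (Hbb-bt at -3.06, Alas2 at -2.14 and Slc4a1 at -1.76), the summed intensity lying between 25500 and 30300 in mutant hearts and between 36900 and 73800 in wild-type hearts. Of 3 fibroblast markers 2 rose on their brightest probes (Col1a1 by 0.74 and Col3a1 by 0.81), while Dcn stood at -0.27 (adjusted p = 0.228). A dimmer Col3a1 probe (ILMN_2683958) stood at 0.21 (adjusted p = 0.661). The fibroblast sums were between 5000 and 5500 in mutant and between 5730 and 7190 in wild-type hearts. The endothelial sums were between 908 and 962 in mutant and between 724 and 853 in wild-type hearts, with 0 of 3 genes past the threshold. The T-cell sums were between 12.8 and 31.8 in mutant and between 29.8 and 50 in wild-type hearts, again with 0 genes past it. In liver 0 markers of these lists passed, and red-cell sums ran from 6280 to 9680 in mutant and from 4590 to 6790 in wild-type livers. Of the fat markers 0 were tested in liver and 3 in heart, and of the macrophage markers 1 in each tissue, with 0 past the threshold. The fat sums varied widely between single hearts, from 34.5 to 730 in mutant and from 28.3 to 595 in wild-type hearts. The part of these cells in the clock values was not tested.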

How the data were processed

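Linear intensity values of 25697 probes on 15 Illumina bead arrays were used as the authors deposited them. The submitters' processing notes name GenomeStudio 2011.1, while the normalization is not given in the sources used here. A second, non-normalized table has 15 columns of sample values whose names match no label, and it was not used. The platform annotation gave 1 symbol for 23978 probes and several for 0, and 1719 were not listed.

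From the deposited intensity, the background of each array was taken as the mode of its low values (near 110 in liver and between -2.41 and -2.39 in heart) with an SD from the values on its lower side, normexp was applied with these parameters, 16 was added and log2 taken. A probe counted as above background at p below 0.05 under a normal curve of that centre and width. On liver arrays 45.4% to 45.5% of probes, and on heart arrays 67.3% to 67.5%, were above it. Mutant and wild type were set against each other in a fit per tissue (limma 3.58.1, R 4.3.3, lmFit and eBayes, Benjamini-Hochberg over all probes tested). The tissue difference came from 1 fit of all arrays, in which duplicateCorrelation (statmod 1.5.0) treated mouse as random. The code was tested on simulated data. Marker sums are background-subtracted intensity over the brightest probe of each gene (hepatocytes, cardiomyocytes, red cells, T cells, macrophages, fat, fibroblasts and endothelium).

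The members and lists were chosen with earlier results of these data known. Every member probe is accounted for. Of 33 other clock genes, those past the threshold and the 4 with the smallest p in each tissue were to be named, and by likeness 5 genes per direction. Each mouse was a separate animal by the labels' numbers. The alternatives were other offsets, floors, filters, normalization, fits and leaving out each mouse.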

Additional observations from a re-analysis of the deposited data

Results flagged for a closer look

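The genotype change differed between liver and heart by the test of the difference itself on 6 of 13 member probes, of 4 genes, against 2.19% of all probes. Under 20 alternatives the call was lost 12 times for ILMN_1229091 of Nr1d1 and 9 times for Arntl. It was lost 2 times for ILMN_2749669 of Nr1d1, 1 time for Per3 and 0 times for Per2. The liver change minus the heart change was 1.68 and 1.57 for Per2 (ILMN_2987862 and ILMN_2987863), 1.06 for Per3, -1.21 for Arntl, and -1.17 and -1.19 for Nr1d1 (ILMN_1229091 and ILMN_2749669).

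A single array stood apart from the other 3 of its group on 3 of 43 sets of 4 arrays examined, and chance alone marks about 1 set in 20. Nr1d1 (ILMN_2749669) was at 5.34 in wild-type liver 2, against 5.83 to 5.87 in the other wild-type livers. Per1 (ILMN_2813487) was at 7.57 in wild-type heart 3, against 7.17 to 7.24. Nr1d2 (ILMN_2798993) was at 7.47 in wild-type heart 4, against 7.79 to 7.86.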

How the results depend on the processing

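In liver 12 probes passed in all, and 13 with an offset of 50, 3 with the background subtracted and a floor of 16, 5 with a floor of 16 on the deposited values, 0 without a filter on dim probes (limma; 11.4% of filtered probes had an unadjusted p below 0.05), 36 with trend and robust settings, 156 in a single fit of all arrays and 2 to 52 on leaving out 1 mouse (2 without wild-type 1, mutant 2 or mutant 3, 7 without wild-type 3, 24 without wild-type 4 and 52 without mutant 1). Member probes past the threshold in liver numbered 0, and 1 with trend and robust settings (Per2), 4 in the single fit (2 of Per2, Per3 and Arntl), and 0 to 2 on leaving out 1 mouse. In heart 367 probes passed, and 577 with an offset of 50, 153 with the background subtracted and a floor of 16, 130 with a floor of 16 on the deposited values, 604 with trend and robust settings, 578 in the single fit and 198 to 294 on leaving out 1 mouse (198 without wild-type 3 or mutant 3, 211 without wild-type 1 and 226 without mutant 1). Of the members 3 passed in heart, and 1 (Clock) and 0 with these floors, 5 with trend and robust settings (with 2 of Per2) and 2 to 3 on leaving out 1 mouse. For the tissue difference 248 passed, and 92 with differences within mice and 136 to 291 on leaving out 1 array (165 or fewer without wild-type liver 1 or 2, mutant liver 3, wild-type heart 1, 2 or 3 or any mutant heart), while the members numbered 6, and 3 with the background subtracted and a floor of 16 (Per2 on 2 probes and Clock) and 4 to 6 on leaving out 1 array.

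With the replicate number as a block, 31 probes passed in liver (2 of them Per2) and 237 in heart, where Clock lost its call (adjusted p = 0.0781). The wild-type liver without a same-numbered mutant liver adds nothing to the genotype change in that fit. The liver changes of the Per2 probes were 1.4 and 1.24 there, the same as on leaving that liver out. The block was therefore no separate check of Per2 in liver. Same-numbered mutant and wild-type arrays did not deviate together over all tested probes (correlations between -0.106 and 0.015). A correlation over all probes cannot show whether the numbers pair mice in a way that touches few genes. Signs turned only for changes near 0 on leaving out 1 mouse: Nr1d1 in liver (-0.07 to 0.11 and -0.01 to 0.27 on its probes; -0.02 without mutant liver 3), the dim Clock probe in heart (-0.10 to 0.04) and Nr1d2 in heart (-0.11 to 0.02). Of 972 values of single genes under the alternatives, 840 kept sign and call, 98 lost a call, 27 gained one and 7 turned sign. Dim probes limit the sizes given, among them those of Npas2 and Arntl and, in liver, those of Per1, Per3, Cry2, Ciart and Usp2. The cause of these shifts was not tested.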
